A study of Homo sapiens with 32 samples.

Results

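The miRNAs described here are those whose number lies between 549 and 999, a block of the miRNA catalogue that shares a period of registration rather than a sequence or a function. They were chosen by name and by level, as precursor rows in this number range with a mean of at least 10 counts over all 32 libraries, leaving out a fixed set of numbers. Of 1513 precursor rows, 111 lay in the range and 56 of these passed the level. The limit fell in a sparse stretch, with mir-892a at a mean of 11.5, mir-659 at 11.47 and mir-937 at 10 counts just inside it and mir-636 at 9.28, mir-887 at 8.97 and mir-578 at 8.75 counts just outside. Levels were therefore used in the choice and are given as a description.

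Small RNA had been sequenced from 8 clones of 293T, an easily transfected human embryonic kidney line. Clones 52, 55, 57 and 67 had the WT genotype. In clones 30, 34, 42 and 43, with the genotype DGCR8 delta103-126Q, DGCR8 had been prime edited to lack codons in its N-terminal part, the reported contact site of the small nuclear protein ERH. Each clone received 4 vectors in separate transient transfections, control shRNA_1, control shRNA_2, shERH_1 or shERH_2, so every library, control or not, comes from cells that took up a vector, were kept in puromycin at 2 µg/ml from 24 h and were sorted for the fluorescent marker on day 5. The clone was the replicate (4 per genotype), and each genotype is a set of clones of 1 cell line. The p-values of the deletion comparisons rest on the spread of levels between clones. Those of the knockdown, the interaction and the control vectors rest on the spread of the within-clone difference. The libraries are bulk RNA of sorted cells, in which a change in some cells and a smaller change in all cells cannot be told apart.

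A miRNA begins as a hairpin in a longer transcript, often in an intron of a protein-coding gene. The Microprocessor, made of the nuclease DROSHA and its RNA-binding partner DGCR8, cuts the hairpin free, DICER removes its loop, and 1 of the resulting strands is loaded into an Argonaute protein. The bases near the 5′ end of that strand, called the seed, select the messenger RNAs that are held down. ERH binds the N-terminal part of DGCR8 and is known for helping the Microprocessor with weak hairpins that lie beside a better one in the same transcript.

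Each row held the reads of both arms of its hairpin. In RefSeq (GRCh38.p14), 48 of the 56 members had a sequence. The following mature arms belong to members with the clearest differences below or to the most abundant ones, with bases 2 to 8, the seed, in capitals. Those that rose in wild-type clones after ERH knockdown are listed before those that fell.
hsa-miR-580-3p: uUGAGAAUgaugaaucauuagg
hsa-miR-643: aCUUGUAUgcuagcucagguag
hsa-miR-624-5p: uAGUACCAguaccuuguguuca
hsa-miR-624-3p: cACAAGGUauugguauuaccu
hsa-miR-581: uCUUGUGUucucuagaucagu
hsa-miR-629-5p: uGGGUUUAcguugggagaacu
hsa-miR-576-5p: aUUCUAAUuucuccacgucuuu
hsa-miR-589-5p: uGAGAACCacgucugcucugag
hsa-miR-551b-3p: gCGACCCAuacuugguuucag

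Among the 48 members with a sequence, 2 pairs of rows shared a seed. miR-551b-3p has the seed of miR-551a, and miR-579-3p has that of miR-664b-3p. Outside the members, miR-590-5p carries the seed of miR-21-5p, one of the most studied miRNAs of growing cells. These arms are shown to let the shared letters be compared.
hsa-miR-579-3p: uUCAUUUGguauaaaccgcgauu
hsa-miR-590-5p: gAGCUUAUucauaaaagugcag
hsa-miR-21-5p: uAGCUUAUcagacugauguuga

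The RefSeq hairpins of the member with the highest rise in wild-type clones, of the one with the steepest fall and of the most abundant member are shown because their base composition differs, with both mature arms in capitals. Their G and C content was 29.9% for mir-580, 62.6% for mir-589 and 59.8% for mir-629.
MIR580: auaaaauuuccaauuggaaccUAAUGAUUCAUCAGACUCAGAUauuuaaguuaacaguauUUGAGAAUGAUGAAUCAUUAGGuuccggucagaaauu
MIR589: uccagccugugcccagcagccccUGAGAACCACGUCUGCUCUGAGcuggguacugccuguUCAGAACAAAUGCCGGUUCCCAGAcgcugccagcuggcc
MIR629: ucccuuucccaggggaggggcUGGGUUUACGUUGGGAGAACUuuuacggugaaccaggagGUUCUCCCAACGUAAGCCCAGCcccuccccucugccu

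By position the members were mostly solitary intronic hairpins. In GENCODE release 29 (GRCh38), 52 of the 56 had no hairpin of another expressed row within 10 kb on the same strand. Copies pooled in 1 row were not counted as neighbours, and those of mir-941 lie within 10 kb of each other on 1 strand. The 4 with a neighbour were mir-653, mir-767, mir-888 and mir-892a. Every locus of 40 members lay in an intron of a protein-coding gene, 6 lay in an exon of a host, 3 in an intron of a non-coding host and 6 in no host, and mir-550a has loci of several kinds. The rows mir-550a and mir-941 pool near-identical copies, so their counts cannot be assigned to a locus.

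Libraries held 1318923 to 6222790 miRNA counts, and 20906 to 121331 of these were member counts. No pair of libraries within a group agreed within sampling noise (chi-square per degree of freedom at least 75.4 in 48 pairs). ERH messenger RNA and the DGCR8 edit were not measured by these libraries, so the labels could not be checked against them. Of 12 miRNAs typical of liver, muscle, neurons, blood or heart, 1 was at 0 counts. Their summed level ran from 509 to 1030 CPM in wild-type control clones and 283 to 823 in wild-type ERH clones. It was 287 to 2720 in deletion control clones and 360 to 1260 in deletion ERH clones. The highest means were those of mir-142 (blood), at 432 CPM, and mir-122 (liver), at 283 CPM. In deletion control clones mir-142 ran from 147 to 2130 CPM. The part of these 12 in the results below was not tested. CPM here is the usual count scaled to library size, after TMM normalization, with the 2 libraries of an arm summed per clone.

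Levels of the members spanned a wide range. Over all sums 7 members had a mean of at least 1000 CPM, 18 lay between 100 and 1000, 18 between 10 and 100, and 13 under 10. The row mir-629 alone made up 24.7% of the summed member CPM and mir-590 13.8%, followed by mir-625 (8.56%), mir-769 (6.26%), mir-576 (6.21%) and mir-708 (5.63%). These 6 together gave 65.1%. Mature miRNAs have nearly the same length, but ligation and amplification favour some sequences, so this order is one of counts.

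As a class the members took a different share of each library. In the wild-type control clones they held 1.34 ± 0.172% of all miRNA counts (SD, n = 4, 1.18 to 1.53%), and under ERH shRNAs 2.10 ± 0.239% (SD, n = 4, 1.94 to 2.45%). In deletion clones the share was 2.38 ± 0.311% (SD, n = 4, 2.00 to 2.74%) under control and 2.84 ± 0.397% (SD, n = 4, 2.52 to 3.37%) under ERH shRNAs. The wild-type control clones lay below all others, and the wild-type ERH clones overlapped the deletion control clones. Without the 6 most abundant members the shares were 0.517 ± 0.0386%, 0.695 ± 0.0344%, 0.842 ± 0.101% and 0.945 ± 0.109% (SD, n = 4) in the same order, so the order of the groups did not rest on those 6. These shares are a description and were not tested.

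In wild-type clones, ERH knockdown was followed mainly by higher member levels. Of 56 members tested, 17 were higher and 2 lower with edgeR's quasi-likelihood test (clone as block, Benjamini-Hochberg adjusted p under 0.05 over all 613 rows tested). That is 30.4% higher and 3.57% lower, against 20.9% and 10.4% of all rows tested. The median log2 fold change was 0.46 over the members and 0.09 over all rows. The calls above were mir-580, mir-581, mir-643, mir-676, mir-579, mir-653, mir-624, mir-760, mir-641, mir-891a, mir-590, mir-576, mir-556, mir-627, mir-561, mir-942 and mir-629, and those below were mir-589 and mir-551b. DESeq2 called 15 higher and 7 lower. The calls depended on the libraries and the fit: they were 8 higher and 2 lower without clone 57, 9 higher and 3 lower with a correction for hairpin GC content, 0 higher and 1 lower when only shERH_2 and control shRNA_2 were used, and 9 higher and 1 lower without the clone block. With the GC correction the member median was 0.16, against -0.04 over all rows. Of the 17 higher calls, 7 stayed past the threshold whichever wild-type clone was left out: mir-580, mir-643, mir-676, mir-579, mir-760, mir-641 and mir-576.

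In deletion clones fewer differences passed the test. ERH knockdown gave 2 higher calls, mir-580 and mir-760, and 3 lower ones, mir-589, mir-551b and mir-598, of 56 members (3.57% and 5.36%, against 4.27% and 6.0% of 633 rows). The median was 0.05 over the members and 0.01 over all rows. These clones share no library with the wild-type comparison. Of the 17 members called higher in wild-type clones 15 were above 0 in deletion clones, the exceptions being mir-579 and mir-561, and their median was 0.93 in wild-type and 0.25 in deletion clones. Over all rows called higher in wild-type clones the share above 0 in deletion clones was 90.6%, against 88.2% for the members. The median of all those rows was 1.11 in wild-type and 0.37 in deletion clones. Both sets were chosen by their wild-type values, and the lower median in deletion clones was not particular to the members. Only mir-580 and mir-589 kept their call whichever deletion clone was left out, and mir-551b lost its call without clone 30. Using only the shRNA 2 libraries, or no clone block, gave 0 calls. The split of 2 higher and 3 lower became 7 and 0 with spike-in scaling and 12 and 2 with total miRNA scaling.

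With all 8 clones in 1 fit, 15 members rose and 6 fell of 56 (26.8% and 10.7%, against 20.1% and 16.5% of 667 rows). The median log2 fold change was 0.21, against 0.06 over all rows. Spike-in scaling moves the median of all rows to 0.52, so these directions are relative to the TMM scale. The split of calls was 30 higher and 1 lower with spike-in scaling, 27 and 2 with total miRNA scaling, and 11 and 7 with the GC correction. Under spike-in scaling mir-598, mir-708 and mir-769 stood at 0.01, 0.09 and 0.13. Without the clone block 2 of the 21 calls were left, and with only shERH_2 and control shRNA_2 12 members were called.

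The member with the highest rise over all clones was mir-580, an intronic hairpin of LMBRD2 (chromosome 5, 36147892 to 36147988). In wild-type clones 52, 55, 57 and 67 it stood at 24.4, 26.3, 17.7 and 14.9 CPM under control and at 49.1, 62.5, 52.1 and 80.5 CPM under ERH shRNAs. In deletion clones 30, 34, 42 and 43 it went from 45.6, 50.6, 36.0 and 61.4 to 73.0, 80.9, 68.7 and 125 CPM. It was higher in 8 of 8 clones, and in both genotypes the arms did not overlap. The log2 fold change was 1.17 ± 0.18 (SE, edgeR adjusted p = 2.56e-05), made up of 1.60 ± 0.26 in wild-type and 0.80 ± 0.13 in deletion clones.

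Among members above 10 CPM the next value was that of mir-643, whose hairpin lies in an intron of the zinc finger gene ZNF766 (chromosome 19, 52281797 to 52281893). Its wild-type clones held 12.7, 17.7, 19.2 and 21.9 CPM under control and 41.8, 41.7, 44.5 and 41.4 CPM under ERH shRNAs. The deletion clones held 28.8, 46.7, 31.5 and 40.0 CPM and then 47.9, 48.0, 40.5 and 66.0 CPM. The knockdown value was nearly the same in all wild-type clones, while the deletion arms overlapped. Over all clones the log2 fold change was 0.85 ± 0.18 (SE, edgeR adjusted p = 0.000939).

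The row mir-641, from an intron of AKT2, a kinase of insulin and growth signalling (chromosome 19, 40282543 to 40282641), rose in wild-type clones and stood higher in deletion clones. Wild-type clones stood between 96.2 and 109 CPM under control and at 200, 195, 192 and 169 CPM under ERH shRNAs. Deletion clones stood at 206, 269, 202 and 303 CPM under control and at 241, 309, 277 and 364 CPM under ERH shRNAs. Both deletion arms lay above every wild-type clone of the same arm. Its log2 fold change was 0.58 ± 0.13 (SE, edgeR adjusted p = 0.00216) for the knockdown and 1.28 ± 0.25 (SE, edgeR adjusted p = 0.00796) for the deletion under control shRNAs.

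Both comparisons passed the test for mir-624, an intronic hairpin of STRN3, which encodes a striatin of a phosphatase complex (chromosome 14, 31014646 to 31014742). Under control shRNAs it measured 61.3, 73.4, 35.3 and 51.6 CPM in wild-type and 164, 178, 149 and 211 CPM in deletion clones. Under ERH shRNAs it measured 101, 95.7, 125 and 94.3 CPM in wild-type and 170, 207, 184 and 243 CPM in deletion clones. There was no overlap between the genotypes in either arm. The deletion effect under control shRNAs was 1.68 ± 0.30 (SE, edgeR adjusted p = 0.00796), and the knockdown effect over all clones was 0.55 ± 0.17 (SE, edgeR adjusted p = 0.0131). The knockdown call was lost without clone 57 and with shRNA 1 only, where it was 0.39 (adjusted p = 0.153).

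The other members named by size for the knockdown were mir-676 and mir-760. The row mir-676, in an intron of EDA, the ectodysplasin gene of skin appendage development (chromosome X, 70022857 to 70022923), held 70.7, 82.0, 34.2 and 104 CPM in wild-type control and 108, 201, 80.4 and 278 CPM in wild-type ERH clones, and 146, 157, 97.9 and 143 then 192, 283, 114 and 181 CPM in deletion clones. Clones of a group spread widely, yet every clone was higher under ERH shRNAs, by 0.79 on the log2 scale ± 0.15 (SE, edgeR adjusted p = 0.00049). The row mir-760, without an annotated host (chromosome 1, 93846832 to 93846911), held 16.9, 16.1, 21 and 34.2 then 51.2, 24.7, 26.5 and 68.0 CPM in wild-type clones, and 22.6, 31.2, 44.5 and 14.2 then 49.7, 41.0, 57.6 and 34.9 CPM in deletion clones. It too was higher in 8 of 8 clones, by 0.84 ± 0.17 (SE, edgeR adjusted p = 0.00089), with 0.94 ± 0.24 in wild-type and 0.76 ± 0.18 in deletion clones. It was 1.32 with shRNA 1 only and 0.51 (adjusted p = 0.107) with shRNA 2 only, and control shRNA_2 stood 0.54 above control shRNA_1 (adjusted p = 0.34). The other risers of the fit over all clones were mir-581 (1.00), mir-653 (0.74), mir-576 (0.54), mir-570 (0.52), mir-590 (0.48), mir-874 (0.48), mir-942 (0.48), mir-556 (0.45) and mir-629 (0.42), given as log2 fold changes. Of these, mir-653, mir-570, mir-590, mir-874 and mir-556 lost their call when 1 of several clones was left out.

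**Figure D1:**
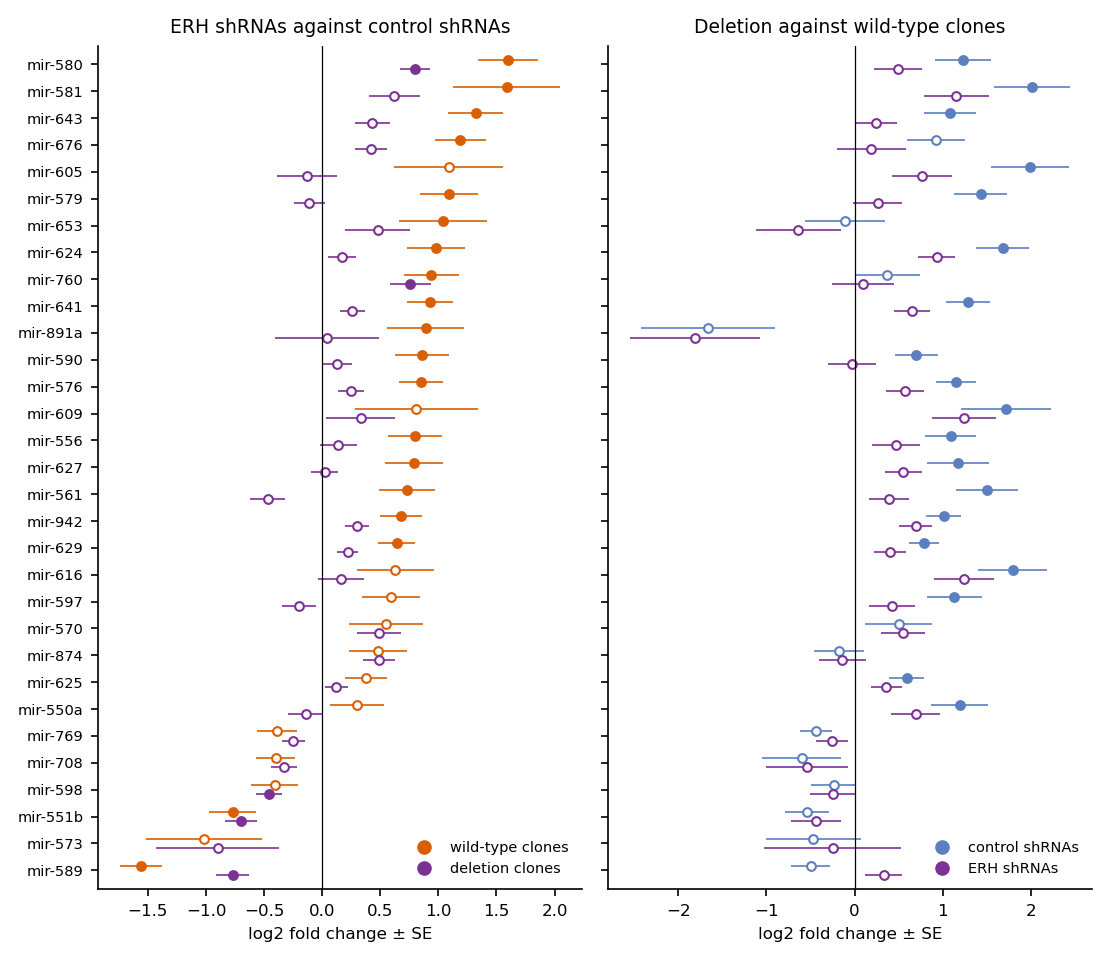
Log2 fold change ± SE (x axis) of the 31 members called in at least 1 comparison, for ERH knockdown in each genotype (left) and for the deletion under each shRNA arm (right). Filled points have an adjusted p under 0.05 and open points do not. Most orange points lie to the right of 0, the purple points of the right panel are all open, and mir-589 lies at the lower end on the left.

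Of the members that fell, mir-589 had the largest change. Its hairpin lies in an intron of FBXL18, which encodes an F-box protein of ubiquitin ligases (chromosome 7, 5495819 to 5495917). In wild-type clones it stood at 371, 406, 439 and 530 CPM under control and at 153, 126, 134 and 157 CPM under ERH shRNAs. In deletion clones it stood at 323, 351, 339 and 207 CPM and then at 159, 168, 227 and 166 CPM. It was lower in 8 of 8 clones, and the wild-type arms did not overlap. The log2 fold change was -1.18 ± 0.16 (SE, edgeR adjusted p = 3.26e-06) over all clones, -1.56 ± 0.18 in wild-type and -0.77 ± 0.14 in deletion clones.

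The row mir-551b, in an intron of the pseudogene EGFEM1P (chromosome 3, 168551854 to 168551949), fell in both genotypes. Its wild-type clones held 617, 651, 578 and 421 CPM under control and 312, 304, 483 and 224 CPM under ERH shRNAs. Its deletion clones held 545, 368, 312 and 338 CPM and then 334, 211, 267 and 174 CPM. Every clone was lower, although the groups overlapped, and the log2 fold change was -0.74 ± 0.13 (SE, edgeR adjusted p = 0.000106), with -0.77 ± 0.20 in wild-type and -0.70 ± 0.14 in deletion clones. The wild-type call was lost without clone 55, and with spike-in scaling the value over all clones was -0.29 (adjusted p = 0.293). Its seed partner mir-551a, from an intron of MEGF6, did not pass the test, at -0.27 ± 0.16 (SE, edgeR adjusted p = 0.197). Both rows have the same seed letters, shown above, but different hairpins.

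The other members that fell above 10 CPM were mir-598, mir-708 and mir-769. The row mir-598, from an intron of XKR6, held 867, 1140, 685 and 662 then 429, 863, 512 and 652 CPM in wild-type clones, and 851, 698, 491 and 788 then 632, 582, 358 and 520 CPM in deletion clones, a change of -0.45 ± 0.12 (SE, edgeR adjusted p = 0.00495). The row mir-708, from an intron of the teneurin gene TENM4 (chromosome 11, 79402022 to 79402109), held 805, 3230, 788 and 1690 then 712, 2610, 552 and 976 CPM, and 999, 876, 578 and 1730 then 908, 591, 522 and 1360 CPM, a change of -0.37 ± 0.11 (SE, edgeR adjusted p = 0.011). The row mir-769, from an intron of CCDC61 (chromosome 19, 46018932 to 46019049), held 1480, 1550, 2000 and 1810 then 1160, 1160, 1500 and 1220 CPM, and 1090, 1450, 1250 and 1180 then 940, 1100, 1050 and 1140 CPM, a change of -0.33 ± 0.10 (SE, edgeR adjusted p = 0.0149). All of them were lower under ERH shRNAs in 8 of 8 clones, although the level of mir-708 differed several-fold between clones of a genotype. The low row mir-573, from an intron of the helicase gene DHX15, was also called, at -0.99 ± 0.37 (SE, edgeR adjusted p = 0.038), and lost its call in 10 of 16 alternatives.

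Member levels were mainly higher in clones that lack the ERH contact site of DGCR8. Of the 53 members that passed the expression filter in this comparison, 19 were higher and 0 lower in deletion clones under control shRNAs (edgeR, 4 against 4 clones), which is 35.8%, against 18.8% higher and 7.09% lower of all 536 rows tested. At an unadjusted p under 0.05, 5 members were lower, and DESeq2 called 18 higher and 4 lower, the latter being mir-891a (-1.81), mir-888 (-1.66), mir-589 (-0.59) and mir-769 (-0.53). The median was 0.50 over the members tested and -0.03 over all rows, and 0.13 and -0.09 with the GC correction. With spike-in scaling these medians were 0.95 and 0.42, and with total miRNA scaling 0.9 and 0.39, so the values are relative to the TMM scale. The members mir-767, mir-873 and mir-892a did not pass the expression filter here and were not tested. Their mean levels under control shRNAs were 68.3, 24.5 and 4.22 CPM in wild-type and 1.49, 1.62 and 1.69 CPM in deletion clones. The wild-type mean of mir-767 rested on clone 57, at 269 CPM, with the other wild-type clones at 0.841 to 1.88 CPM. That of mir-873 rested on clones 55 and 57, at 38.6 and 56.3 CPM. For each of these rows the clones of the genotypes overlapped. In 18 of the 53 (34.0%) every deletion clone lay above every wild-type clone, and in 2 below, against 102 (19%) above and 55 below of all 536 rows. Both this comparison and the knockdown in wild-type clones rest on the wild-type control sums, so their values are given side by side without a measure of likeness. Without the expression filter, edgeR called 17 members higher and 3 lower of 56, so the absence of lower calls depended on the filter. With only the shRNA 2 libraries the count of calls was 8, and without clone 34 it was 12.

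The largest differences among members above 10 CPM were in mir-616, mir-624, mir-561, mir-579, mir-641 and mir-580. The row mir-616 lies in an intron of DDIT3, which encodes the stress transcription factor CHOP (chromosome 12, 57519163 to 57519259). Under control shRNAs it held 9.71, 5.36, 6.01 and 9.81 CPM in wild-type and 17.2, 22.3, 45.1 and 22.0 CPM in deletion clones. Under ERH shRNAs it held 20.4, 9.30, 6.71 and 11.9 CPM in wild-type and 26.8, 28.1, 29.2 and 29.8 CPM in deletion clones. The genotypes stayed apart in both arms, and the log2 fold change was 1.79 ± 0.39 (SE, edgeR adjusted p = 0.00922) under control and 1.24 ± 0.34 (SE, edgeR adjusted p = 0.155) under ERH shRNAs. Its knockdown effect did not pass the test in either genotype.

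The row mir-561, from an intron of GULP1, an adaptor for the engulfment of dying cells (chromosome 2, 188297492 to 188297588), rose in wild-type clones and had values below 0 in most deletion clones. Wild-type clones held 194, 315, 127 and 138 CPM under control and 219, 333, 325 and 306 CPM under ERH shRNAs. Deletion clones held 515, 467, 383 and 796 CPM under control and 345, 299, 418 and 504 CPM under ERH shRNAs. All wild-type clones were higher and 3 of 4 deletion clones lower after knockdown. The deletion effect under control shRNAs was 1.5 ± 0.35 (SE, edgeR adjusted p = 0.0118), and the knockdown effect was 0.73 ± 0.24 (SE, edgeR adjusted p = 0.0253) in wild-type and -0.47 ± 0.15 (SE, edgeR adjusted p = 0.0745) in deletion clones. Without clone 57 or without clone 67 the wild-type call was lost. The deletion call was lost with shRNA 2 only. Control shRNA_2 against control shRNA_1 gave -0.53 (edgeR adjusted p = 0.25).

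Similar values were seen for mir-579, from an intron of ZFR, a zinc finger RNA-binding protein gene (chromosome 5, 32394378 to 32394475). Wild-type clones held 20.7, 19.3, 13.5 and 17.7 CPM and then 29.4, 45.5, 27.8 and 45.8 CPM, and deletion clones 50.2, 41.4, 38.7 and 60.1 CPM and then 48.3, 39.8, 34.9 and 56.8 CPM. Deletion control clones lay above all wild-type control clones, by 1.43 ± 0.30 (SE, edgeR adjusted p = 0.00922). With the GC correction this was 0.58 (adjusted p = 0.107) and with shRNA 2 only 1.11 (adjusted p = 0.0663). Its seed partner mir-664b, a hairpin in an exon of DKC1 that overlaps a small nucleolar RNA, stood at -0.21 ± 0.41 (SE, edgeR adjusted p = 0.739) in the same comparison. The deletion effects of mir-641 and mir-624 are given above, and that of mir-580 was 1.23 ± 0.32 (SE, edgeR adjusted p = 0.0165). The deletion effect of mir-580 was 0.26 (adjusted p = 0.448) with the GC correction and 1.01 (adjusted p = 0.123) with shRNA 2 only.

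Members called below 10 CPM or with smaller differences complete the list. They were mir-581 (2.01), mir-605 (1.99), mir-609 (1.72), mir-550a (1.19), mir-627 (1.17), mir-576 (1.15), mir-597 (1.13), mir-556 (1.09), mir-643 (1.08), mir-942 (1.01), mir-629 (0.78), mir-590 (0.70) and mir-625 (0.59), given as log2 fold changes. The row mir-581, in an intron of ARL15 (chromosome 5, 53951504 to 53951599), went from 3.49, 2.41, 3.76 and 1.12 CPM in wild-type to 8.01, 12.5, 10.3 and 12.2 CPM in deletion clones, so the highest ratio rests on a low level. The members mir-581, mir-616, mir-624, mir-641, mir-942 and mir-629 kept their call under every alternative tried, while 7 of the 19 lost it with a correction for hairpin GC content. When 1 of several clones was left out, mir-609, mir-627, mir-556, mir-643, mir-590 and mir-625 lost theirs, as did mir-550a without clone 42 and mir-597 without clone 34.

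Under ERH shRNAs no member passed the test between the genotypes, which does not show that their levels were alike. The count was 0 of 55 members tested and 0.0% of all 569 rows (edgeR), although 15 members and 87 rows had an unadjusted p under 0.05, and DESeq2 called 1 member. The median was 0.20 over the members and 0.04 over all rows. Of the 19 members that differed under control shRNAs, 18 had a value above 0 here, the exception being mir-590, and their median was 1.19 under control and 0.55 under ERH shRNAs. Of all 101 rows called higher under control shRNAs the share above 0 was 97.0%, against 94.7% for the members, and both arms come from the same clones, so these values are not independent. The median of all 101 rows was 1.27 under control and 0.52 under ERH shRNAs, so the lower median was not particular to the members. The nearest to the threshold was mir-624, at 0.93 ± 0.21 (SE, edgeR adjusted p = 0.0877).

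Whether the knockdown acted differently in the genotypes was tested as an interaction. It gave 0 calls among the 56 members and 0.0% of 667 rows at an adjusted p under 0.05 (edgeR), with 18 members and 127 rows at an unadjusted p under 0.05, and DESeq2 called 3 members. The median of the interaction term was -0.24 over the members and 0.00 over all rows. The lowest adjusted p belonged to mir-579, with -1.13 ± 0.26 (SE, edgeR adjusted p = 0.0851), and the other members named by size were mir-605 with -1.16 (adjusted p = 0.226) and mir-767 with 1.90 (adjusted p = 0.18). For mir-589 the term was 0.86 (adjusted p = 0.0875). Between 0 and 8 members were called across the alternatives, with 6 when clone 52 was left out and 8 when only the shRNA 1 libraries were used. None of the members thus passed the test for a different response in the genotypes in this fit, which does not show that the responses were alike.

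The control vectors were compared with each other as a measure of background. Control shRNA_2 against control shRNA_1 gave 0 calls among 56 members and 0.0% of 571 rows (edgeR and, for members, DESeq2). An unadjusted p under 0.05 was found for 5 members and 48 rows. The medians were -0.03 and 0.01, and the members' values ran from -0.91 to 0.83.

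The most abundant members followed the same lines with smaller ratios. The row mir-629, from an intron of TLE3, a Groucho-type co-repressor gene (chromosome 15, 70079372 to 70079468), held 2720, 3300, 3760 and 3570 then 4030, 5090, 5680 and 5360 CPM in wild-type clones, and 5130, 6440, 5390 and 5530 then 5880, 7970, 6060 and 6970 CPM in deletion clones. All wild-type control clones lay below every other sum, and the within-clone rise was 0.57 to 0.63 on the log2 scale in wild-type and 0.17 to 0.33 in deletion clones. The change was 0.42 ± 0.10 (SE, edgeR adjusted p = 0.00212) for the knockdown and 0.78 ± 0.17 (SE, edgeR adjusted p = 0.00922) for the deletion under control shRNAs.

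The row mir-590, which shares its 5p seed with miR-21-5p as printed above, lies in an intron of the translation initiation factor gene EIF4H (chromosome 7, 74191198 to 74191294). It held 1770, 2660, 1590 and 1450 then 1690, 4150, 3550 and 4110 CPM in wild-type clones, and 3600, 2550, 2600 and 3310 then 3770, 3820, 2930 and 2890 CPM in deletion clones. Clone 52 and clone 43 did not follow the rise. The knockdown effect over all clones was 0.48 ± 0.15 (SE, edgeR adjusted p = 0.0173), and the deletion effect was 0.70 ± 0.24 (SE, edgeR adjusted p = 0.0448), which went to -0.01 with the GC correction and lost its call without any of clones 30, 34, 42, 43, 52, 57 or 67.

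The row mir-576, from an intron of SEC24B, a coat protein gene of secretory vesicles (chromosome 4, 109488698 to 109488795), held 594, 750, 572 and 849 then 1410, 1490, 949 and 1010 CPM in wild-type clones, and 1070, 1710, 1500 and 1730 then 1590, 1700, 1620 and 2340 CPM in deletion clones. Wild-type control clones lay below every other sum. Its knockdown effect was 0.54 ± 0.13 (SE, edgeR adjusted p = 0.00277) and its deletion effect 1.15 ± 0.23 (SE, edgeR adjusted p = 0.00796). With the GC correction these were 0.26 (adjusted p = 0.124) and 0.49 (adjusted p = 0.129). The row mir-625, from an intron of the fucosyltransferase gene FUT8 (chromosome 14, 65471102 to 65471186), held 1210, 1430, 1090 and 1620 then 2150, 1670, 1380 and 1570 CPM, and 1570, 2060, 2310 and 2000 then 1830, 2150, 2360 and 2400 CPM. It passed only the deletion comparison, at 0.59 ± 0.20 (SE, edgeR adjusted p = 0.0473), and lost that call in 10 of 16 alternatives.

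By edgeR with the expression filter, 25 of the 56 members were called in none of the comparisons, among them mir-888, which DESeq2 called as given above. The same count over all rows is not given, so this describes the members only. The 25 also include mir-671, known for cutting the circular RNA CDR1as, and mir-744, from an intron of the kinase gene MAP2K4. The row mir-671 held 531 to 961 CPM in wild-type control clones and 730 to 916 CPM in deletion control clones, and its deletion effect was 0.10 ± 0.22 (SE, edgeR adjusted p = 0.763). The row mir-941, whose copies sit in tandem in DNAJC5, stood at 0.22 ± 0.25 (SE, edgeR adjusted p = 0.55). Neither of the members that overlap small nucleolar RNAs, mir-664a and mir-664b, was called.

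Members that rose mostly had hairpins of low G and C content. This split was chosen after the values were seen, and it carries no test. The median G and C content of member hairpins was 46.3% (27.4 to 79.1%), and that of all rows tested was 48.2%. Of the 28 members at or under the member median, 14 were called higher and 0 lower after knockdown in wild-type clones, with a median of 0.70. Of the 28 above it, 3 were higher and 2 lower, with a median of 0.04. For the deletion under control shRNAs the counts were 14 higher of 27 tested with a median of 0.92, and 5 of 26 with a median of 0.02.

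Over all rows tested the counts for these comparisons pointed the same way, and those for the knockdown in deletion clones did not. Of rows at or under the same GC value, 87 were higher and 21 lower of 263 in the wild-type knockdown and 77 and 9 of 238 in the deletion. Of those above it, 39 were higher and 42 lower of 339, and 22 and 28 of 290. Across the members, which are not independent replicates, GC content and log2 fold change had r = -0.47 and rho = -0.51 (n = 56) in the wild-type knockdown and r = -0.41 and rho = -0.44 (n = 53) in the deletion. In the knockdown of deletion clones r was -0.21 over the members and 0.04 over all rows tested, and rows at or under the GC value gave 10 higher and 17 lower calls. The points share their libraries. With a GC correction in the fit, 12 of the 19 deletion calls and 16 of the 21 knockdown calls of all clones were kept.

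By their neighbours on the chromosome the members differ from much of the table. Among all rows tested, the 129 clustered ones had a median knockdown change of -0.33 over all clones, with 4 higher and 59 lower, and the 524 solitary ones a median of 0.21, with 127 higher and 50 lower. The members are almost all of the solitary kind, and the 52 solitary members had a median of 0.16, with 14 higher and 6 lower. Of the 4 clustered members mir-653 was called by edgeR in the knockdown. The members in introns of protein-coding genes supplied 13 of the 15 higher calls, but they are also 40 of the 56 members. None of the 6 in an exon of a host was called in any comparison. Counts by host over all rows are not given, so these are a description.

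A separate pattern concerned single clones. The row mir-767, in an intron of the GABA receptor gene GABRA3 beside mir-105 (chromosome X, 152393421 to 152393529), held 269 CPM under control and 173 CPM under ERH shRNAs in wild-type clone 57. In every other clone it held at most 11.7 CPM, a level reached in deletion clone 43. The neighbouring X-linked members mir-888 and mir-892a, and mir-891a on the same chromosome, were likewise highest in clone 57. Under control shRNAs they held 10.5, 9.39 and 34.9 CPM there, and under ERH shRNAs 22.4, 18.8 and 34.8 CPM. The other wild-type clones held 1.40 to 3.49, 1.34 to 3.92 and 2.49 to 7.29 CPM under control shRNAs, in the same order. Not all X-linked members did so, since mir-676 was lowest of the wild-type clones there, at 34.2 and 80.4 CPM. The row mir-873, which is not X-linked, was also highest in clone 57, at 56.3 and 53.7 CPM. It was not high there alone, since wild-type clone 55 held 38.6 CPM under control and 21.3 CPM under ERH shRNAs. These rows were chosen after their values were seen. The mean count used to choose the members includes clone 57, so the high levels there helped these rows to pass. That they were highest in clone 57 is therefore not independent of the choice. By edgeR with the expression filter, none of the 4 in the plot was called between the genotypes where it could be tested. DESeq2 called mir-888 and mir-891a lower in deletion clones under control shRNAs, as given above. The wild-type knockdown call of mir-891a (0.89, adjusted p = 0.0454) was lost whichever clone was left out.

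**Figure D2:**
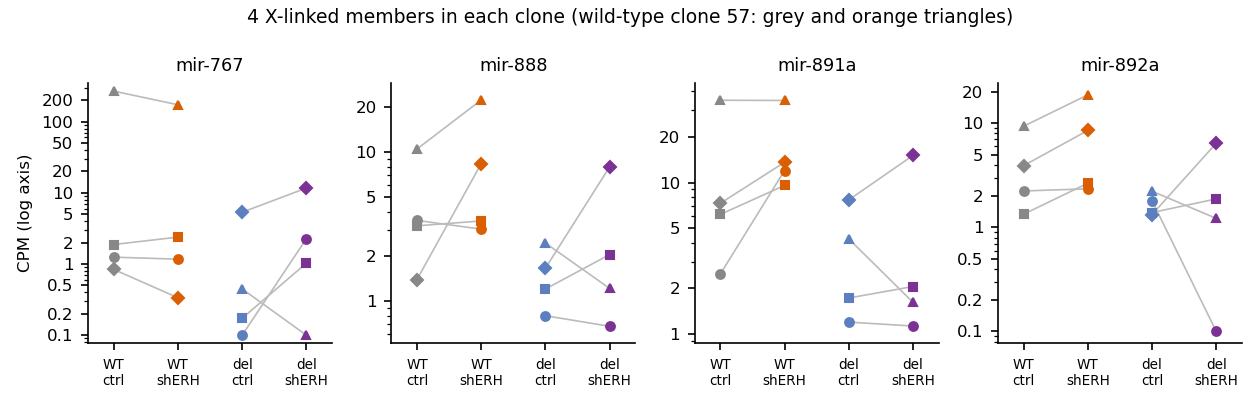
Level of 4 X-linked members, chosen after their values were seen, in each clone (y axis, CPM, log axis) by genotype and shRNA arm. Grey lines join the arms of 1 clone, grey and orange triangles are wild-type clone 57, and values under 0.1 CPM are drawn at 0.1. Clone 57 is the highest clone of all groups for mir-767, at 269 and 173 CPM.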

How the data were processed

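The deposited table held read counts per library for 1513 miRNA precursor rows and 4 spike-in RNAs, and per the file headers they were total read counts of precursors, not normalized. SAMtools is named in the submitters' processing notes. The aligner, annotation, genome build and any use of molecular identifiers are not given in the sources used here. The labels' protocols give 400 ng of total RNA with spike-ins added, of which 100 ng entered a QIAseq miRNA library. Without such identifiers, counts include PCR copies.

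The members and the lists were chosen with earlier results of these data known. Each clone's 2 libraries per arm were added up (16 sums). Differences were tested over the whole table with edgeR 4.0.16 (R 4.3.3) by the quasi-likelihood test after filterByExpr and TMM scaling, with a Benjamini-Hochberg adjusted p under 0.05 called and a prior count of 2 for log2 CPM. The clone was a block for the knockdown, the interaction and the control vectors. The labels give each clone all 4 vectors, and the control and ERH sums of 1 clone deviated from their group means together, with r of 0.42 to 0.86 over 314 miRNAs. The procedure was tested on simulated data. Members called in the knockdown of all clones or the deletion under control shRNAs were named. Values per clone or their range are given for up to 6 with the largest change in each direction above 10 CPM and for the 6 most abundant. The 3 with the largest interaction at an unadjusted p under 0.05 were named with their interaction term. Further rows with values, such as mir-581, mir-671 and the X-linked ones, were chosen after their values were seen. Positions, hosts and GC content come from GENCODE release 29, in which all 56 members matched, and sequences from RefSeq. Alternatives were DESeq2 1.42.0, spike-in or total miRNA scaling, no filter, a mean of at least 100 counts, no clone block, single shRNAs, a GC correction and leaving out each clone.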

Additional observations from a re-analysis of the deposited data

Results flagged for a closer look

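Of 72 groups of 4 clones checked for a value far from the rest, over 18 members, 3 held one, where chance gives about 1 in 20. The row mir-576 stood at 2340 CPM in deletion clone 43 under ERH shRNAs, and the other deletion clones at 1590 to 1700 CPM. The row mir-589 stood at 227 CPM in deletion clone 42 under ERH shRNAs, against 159 to 168 CPM in the others. The row mir-643 stood at 44.5 CPM in wild-type clone 57 under ERH shRNAs, against 41.4 to 41.8 CPM, a group with little spread.

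The within-clone ERH knockdown difference of mir-579 was above 0 in 4 of 4 wild-type clones and slightly below 0 in 4 of 4 deletion clones. In deletion clones it was -0.11 ± 0.13 on the log2 scale (SE, edgeR adjusted p = 0.601), not distinguishable from 0, and the per-clone values lay between -0.15 and -0.06. The difference, deletion minus wild-type, was -1.13 on the log2 scale (edgeR interaction adjusted p = 0.0851 over all rows). It did not pass the threshold after adjustment.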

How the results depend on the processing

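The counts of members called moved with the fit. For the knockdown in all clones (21 calls) they were 2 without the clone block, 12 with shRNA 2 only and 15 to 24 when 1 clone was left out. For the knockdown in wild-type clones (19 calls) they were 29 with spike-in and 31 with total miRNA scaling, 10 without the clone block, 1 with shRNA 2 only, 12 with the GC correction and clone block, and 10 to 23 with 1 clone left out. For the knockdown in deletion clones (5 calls) they were 8 with DESeq2, 14 with total miRNA scaling, 9 at a mean of at least 100 counts, 0 without the clone block, 0 with shRNA 2 only, 8 with the GC correction and clone block, and 2 to 9 with 1 clone left out. For the deletion under control shRNAs (19 calls) they were 8 with shRNA 2 only and 12 to 19 with 1 clone left out. Under ERH shRNAs (0 calls) they were 1 with DESeq2 and 0 to 1 with 1 clone left out. For the interaction (0 calls) they were 3 with DESeq2, 6 with total miRNA scaling, 3 with no filter, 8 at a mean of at least 100 counts, 8 with shRNA 1 only, and 0 to 6 with 1 clone left out. The cause of these shifts was not tested. The direction turned for mir-556 (-0.01) and, in the deletion, mir-590 (-0.01) with the GC correction, and for mir-598 (0.01), mir-708 (0.09) and mir-769 (0.13) in the knockdown with spike-in scaling. Of the 21 knockdown calls 2, mir-580 and mir-589, and of the 19 deletion calls 6 held in every alternative that gave them a value. Members under 10 CPM rest on few counts, which limits the precision of their values.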
